A study of Mus musculus with 8 samples.

Results

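Hr6b knockout spermatocytes were compared with wild type spermatocytes. The comparison used 4 of the 8 arrays of the study, the 2 late spermatocyte arrays labelled HR6B knockout and the 2 labelled wild type, while the other 4 arrays held round spermatids of the same genotypes. All 45037 probe sets other than the array's control probe sets were tested. Weight was given to the 18595 probe sets whose mean in wild type spermatocytes was at or above that in wild type spermatids, here called spermatocyte-predominant. Knockout mice were Hr6b-/- males and controls were Hr6b+/+ males, both on the FVB background and 4 to 5 weeks old. Both genotypes came from backcrosses to FVB, and the knockout mice had Hr6b-/- mothers whereas the wild type mice had Hr6b+/+ mothers, so that maternal genotype and genotype cannot be told apart. Germ cells were released from the testis with collagenase and trypsin, sorted by sedimentation at unit gravity and purified further on a Percoll density gradient. The purity of the fractions was judged on stained slides and described as alike in the genotypes. The number of mice behind each array is not given in the sources used here, and the p-values therefore cover the variation among these arrays alone, which may be technical.

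HR6B, encoded by Ube2b, is a ubiquitin-conjugating enzyme and 1 of the mammalian counterparts of yeast RAD6. Together with ligases such as RAD18 and RNF20 it attaches ubiquitin to proteins of damaged DNA and of chromatin. Its close relative HR6A is encoded by the X-linked gene Ube2a, which is silenced in spermatocytes together with the rest of the X chromosome. Late spermatocytes are in meiotic prophase, when homologous chromosomes are joined by the synaptonemal complex, recombine and prepare for the meiotic divisions. Male mice without HR6B are infertile.

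Signal below is the array value on the linear scale. Log2 fold changes give the knockout mean less the wild type mean on the log2 scale. Calls were made with limma, at adjusted p-values under 0.05. The labels were checked first with the targeted gene. Ube2b on its probe set with the highest signal had 833 and 824 in the knockout arrays and 2855 and 3349 in the wild type arrays, for a difference of -1.90 on the log2 scale (standard error 0.12, adjusted p = 0.000659). That probe set had 1.49-fold more signal in wild type spermatids than in wild type spermatocytes. On a second probe set, with 2.04-fold more signal in wild type spermatocytes, the knockout arrays gave 421 and 417 and the wild type arrays 2042 and 2277, for a difference of -2.36 (standard error 0.18, adjusted p = 0.00127). Knockout arrays were below wild type arrays on both. The other 2 Ube2b probe sets had log2 fold changes of 0.29 and -0.13 and were not called. For Ube2a the knockout arrays gave 75.8 and 73.4 and the wild type arrays 65.6 and 50.8, a log2 fold change of 0.37 that did not pass the test (adjusted p = 0.307).

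In knockout spermatocytes 717 probe sets were called, 1.59% of those tested, with 531 higher (1.18%) and 186 lower (0.413%). With 1 probe set for each of 18193 genes, 403 were higher (2.22%) and 93 lower (0.511%). The calls were spread unevenly over genes of the 2 stages. Of the 1480 probe sets with at least 8-fold more signal in wild type spermatids, 406 were higher in knockout spermatocytes (27.4%) and 1 was lower. Over all 26442 probe sets with more signal in spermatids, 469 were higher (1.77%) and 51 lower (0.193%). Among the spermatocyte-predominant probe sets 62 were higher (0.333%) and 135 lower (0.726%), together 1.06%. With the medians of expressed autosomal probe sets set equal on all arrays, 55 of the same 18595 were higher and 147 lower. That scaling also moved the stage division, to 12303 probe sets, of which 33 were higher and 134 lower. The median log2 fold change was -0.0083 over all probe sets, -0.04 over the spermatocyte-predominant and 0.01 over the others.

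**Figure D1:**
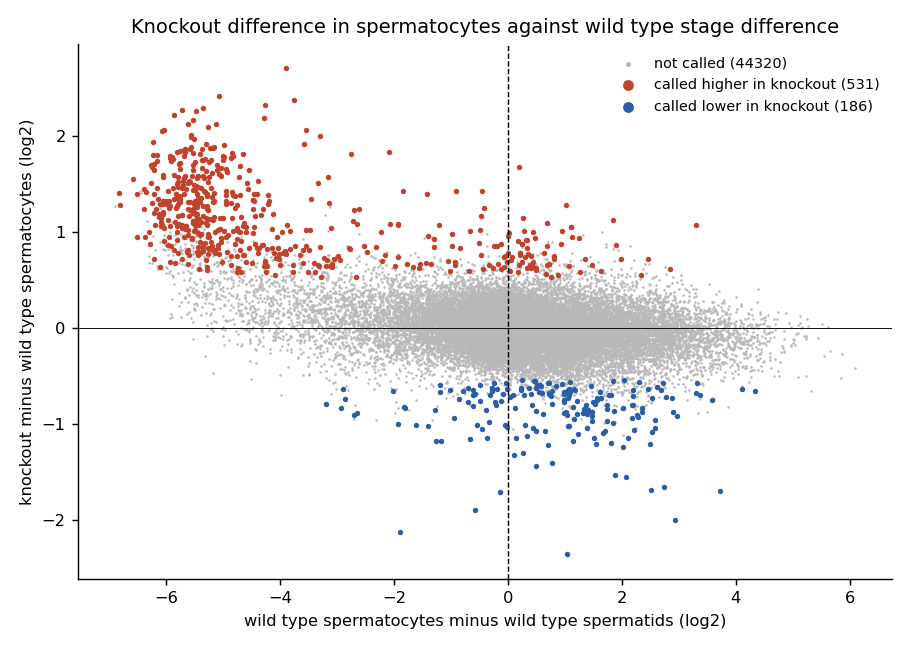
Each point is 1 of 45037 probe sets. The x axis gives wild type spermatocytes minus wild type spermatids and the y axis knockout minus wild type spermatocytes, both on the log2 scale; red points were called higher and blue points lower in the knockout, and the dashed line divides spermatid-predominant (left) from spermatocyte-predominant (right) probe sets. Most of the 531 red points lie at the far left, and the blue points lie mainly right of the line.

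Genes of the haploid phase moved together on these arrays. Of 30 markers of round spermatids that were measured, 20 rose and none fell, with a median log2 fold change of 1.52 beside -0.00035 over 1 probe set per gene. Tnp1, which encodes a transition protein that replaces histones in spermatids, had 7475 and 5363 in the knockout and 1813 and 1053 in wild type. Prm2, a protamine gene, had 6593 and 4538 against 1413 and 844. The summed signal of the list was 57805 and 45591 in the knockout arrays and 25130 and 18082 in the wild type arrays, so that all 4 arrays held it and knockout replicate 1 held most. From 1139 autosomal probe sets that were at least 8-fold higher in spermatids, the extra spermatid signal of the knockout arrays was estimated at 1.77% and 1.24% of that in knockout spermatids for replicates 1 and 2. Their part in the calls on genes shared by the stages was not tested. In such bulk samples a change in the number of cells of a type and a change in RNA per cell cannot be told apart. With that share subtracted from both knockout arrays, 294 probe sets were called in all, of which 38 spermatocyte-predominant ones were higher and 83 lower.

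**Figure D2:**
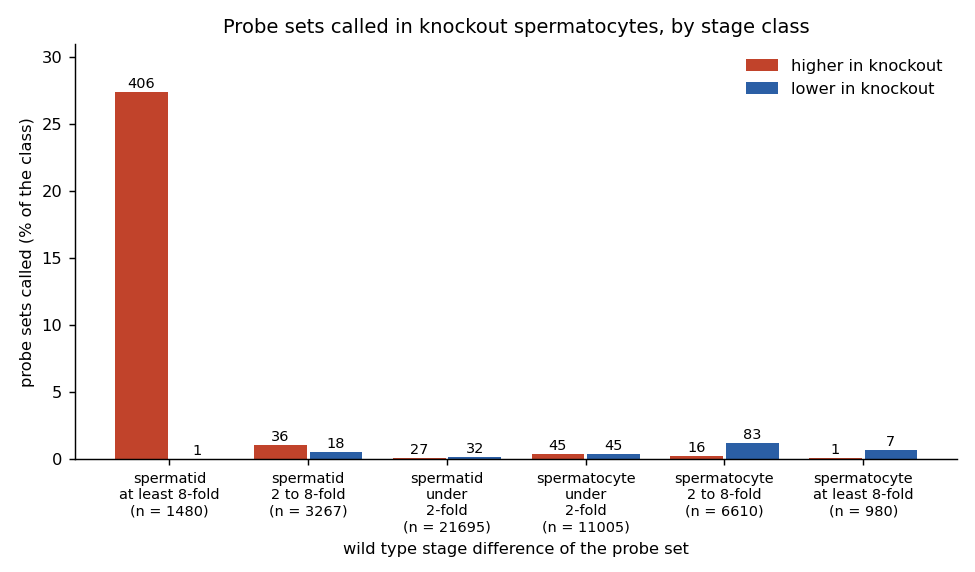
Bars give the percentage of probe sets called higher (red) or lower (blue) in knockout spermatocytes within 6 classes of the wild type stage difference, with the number called above each bar and the class size below it. Calls of higher signal reach 27.4% where spermatids have at least 8-fold more signal, and with at least 2-fold more signal in spermatocytes lower calls outnumber higher ones (83 to 16 and 7 to 1).

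Among spermatocyte-predominant probe sets there were fewer rises than among the others, 62 against 469, and more falls, 135 against 51. The 62 higher probe sets had a median size of log2 fold change of 0.75, and the 135 lower ones of 0.80. At least 2-fold changes were seen for 10 of the former and 34 of the latter. Both knockout arrays lay on the same side of both wild type arrays for all 62 and all 135. The higher probe sets annotated to a single gene represent 40 genes and the lower ones 108 genes, while 8 and 14 probe sets had no gene. Of probe sets with under 2-fold more signal in spermatocytes, 45 were higher and 45 lower of 11005, and of those with 2- to 8-fold more, 16 were higher and 83 lower of 6610. The wild type spermatocyte arrays entered both the stage ratio and the knockout comparison. When the stage ratio was taken from both genotypes, 69 were higher and 134 lower. Just inside the division were Rhou (log2 stage ratio 0.0074), Atp6v0a1 (0.03) and Eps8l3 (0.03), and just outside it were second probe sets of Nmnat3 (-0.0056) and Gpd2 (-0.0079) and Metap1d (-0.04).

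The genes described next are the 15 that rose most and the 15 that fell most among spermatocyte-predominant genes with a mean signal of 100 or more in 1 of the genotypes. Their log2 fold changes ran from 0.77 to 1.14 upwards and from -1.04 to -2.36 downwards. The rule left out Ripk4, a kinase gene, which had the largest rise of the 62 (log2 fold change 1.68) at mean signals of 82.8 (knockout) and 25.8 (wild type).

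2 genes of DNA metabolism rose. Dna2, which encodes a nuclease and helicase that processes DNA flaps and broken ends, had 1243 and 1236 in the knockout and 534 and 602 in wild type, a 2.19-fold difference (log2 fold change 1.13, standard error 0.15, adjusted p = 0.00532). The 2 knockout arrays nearly coincided and lay far above both wild type arrays. Faap20, whose product belongs to the Fanconi anaemia core complex, had 295 and 281 against 145 and 173, with a rise of 0.86 on the log2 scale (standard error 0.13, adjusted p = 0.00953), and its 2 other probe sets were also called higher. The dimmer of those carries a suffix for probes that may match other transcripts.

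Of the same 15 genes, 2 have roles in silencing. Ago1, which encodes an Argonaute protein that binds small RNAs, had 148 and 124 in the knockout and 58.4 and 68.9 in wild type (log2 fold change 1.10, standard error 0.14, adjusted p = 0.00431). Resf1, a factor in the silencing of retroelements, had 339 and 254 against 126 and 159 (log2 fold change 1.05, standard error 0.18, adjusted p = 0.0197). The knockout arrays of Resf1 differed from each other by more than its wild type arrays did, yet the groups did not overlap, and 2 further probe sets of Resf1 were called higher with log2 fold changes of 0.95 and 1.05. The former carries a suffix for probes that may match other transcripts.

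Pmaip1, Fadd and Bag2 act in cell death or protein folding. Pmaip1, which encodes the pro-apoptotic BH3 protein NOXA, had 423 and 452 in the knockout and 199 and 217 in wild type (log2 fold change 1.08, standard error 0.12, adjusted p = 0.00254). Pmaip1 had 9.93-fold more signal in the wild type spermatocyte fraction than in wild type spermatids. Its probe set was the 1 called higher in the class of at least 8-fold. Fadd, the adaptor of death receptors, had 349.7 and 279 against 180.2 and 161 (log2 fold change 0.88, standard error 0.17, adjusted p = 0.0375). Bag2, a cofactor of HSP70 chaperones, had 127 and 110.2 against 55.0 and 76.8 (log2 fold change 0.87, standard error 0.17, adjusted p = 0.0355), and its signal was low in all arrays.

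Nmnat3, Nol9 and Msrb2 encode enzymes. Nmnat3, an enzyme of NAD synthesis, had the strongest signal of the 15, with 3177 and 3508 in the knockout and 1611 and 1737 in wild type (log2 fold change 1.00, standard error 0.12, adjusted p = 0.00376). Its second probe set, just outside the stage division, had a log2 fold change of 0.96 and was called too. Nol9, a polynucleotide kinase that acts in ribosomal RNA processing, had 175 and 176 against 83.6 and 90.9 (log2 fold change 1.01, standard error 0.12, adjusted p = 0.00368). Of its 4 other probe sets 1 was called higher and a bright one had a log2 fold change of -0.31 without a call, so the probe sets of Nol9 disagree. Msrb2, a methionine sulfoxide reductase, had 141 and 152 against 79.5 and 93.4 (log2 fold change 0.77, standard error 0.13, adjusted p = 0.0159).

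The remaining higher genes act at membranes or have other roles. Osbpl10, which encodes an oxysterol-binding protein relative, had 309 and 199 in the knockout and 118 and 129 in wild type (log2 fold change 1.01, standard error 0.18, adjusted p = 0.0244). A second Osbpl10 probe set, with far more signal in wild type spermatids (log2 stage ratio -4.22), was also called higher, with a log2 fold change of 1.29 (adjusted p = 0.00184). Atp6v0a1, a subunit of the proton pump of acidic vesicles, had 472 and 416 against 223 and 223 (log2 fold change 0.99, standard error 0.13, adjusted p = 0.00594), but none of its 3 other probe sets was called. Rhou, a small GTPase gene, had 177 and 154 against 90.7 and 102 (log2 fold change 0.78, standard error 0.13, adjusted p = 0.0191). Il9, a cytokine gene, had 379 and 380.2 against 199 and 149 (log2 fold change 1.14, standard error 0.14, adjusted p = 0.00449). Gm13238, a predicted gene, had 1179 and 1169 against 598 and 630.3 (log2 fold change 0.94, standard error 0.13, adjusted p = 0.00612). In each of these 5 genes both knockout arrays exceeded both wild type arrays.

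The fallen genes began with Ube2b itself, given above, followed by Tmcc2, which encodes a transmembrane protein with coiled coils. Tmcc2 had 25.4 and 25.7 in the knockout and 93.3 and 112 in wild type, a 4.01-fold fall (standard error 0.14 on the log2 scale, adjusted p = 0.000822). A second probe set of Tmcc2 fell by 1.69 on the log2 scale, from 170 to 52.7. Ndrg4, a gene of the NDRG family, had 34.0 and 52.8 in the knockout and 105 and 148 in wild type (log2 fold change -1.56, standard error 0.21, adjusted p = 0.00612), and its second probe set was called lower with -0.88. In wild type, spermatocytes had 7.68-fold more signal of Tmcc2 and 4.19-fold more of Ndrg4 than spermatids. The second Tmcc2 probe set and the named Ndrg4 probe set carry suffixes for probes that may match other transcripts.

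1 gene of meiotic recombination fell. Mnd1, whose product works with PSMC3IP (HOP2) to help the recombinases pair homologous DNA, had 49.1 and 62.2 in the knockout and 112 and 133 in wild type (log2 fold change -1.15, standard error 0.15, adjusted p = 0.00525). It had 1 probe set, and its signal was modest in both genotypes. Its partner Psmc3ip had a mean of 8083 (knockout) and 7840 (wild type), with a log2 fold change of 0.04 and no call.

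Hhex and Cdca7l encode nuclear proteins. Hhex, a homeobox gene, had 65.7 and 56.2 in the knockout and 148 and 132 in wild type (log2 fold change -1.20, standard error 0.23, adjusted p = 0.0319). Cdca7l, which encodes a nuclear protein that binds MYC, had 141 and 120.4 against 279.9 and 268 (log2 fold change -1.07, standard error 0.13, adjusted p = 0.00406). The groups did not overlap in either gene, as the choice of genes required, and the call of Hhex was lost in 7 of 14 alternative settings.

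Dgkh, Gnao1 and Zfyve9 act in signalling. Dgkh, which encodes a diacylglycerol kinase, had 84.1 and 76.8 in the knockout and 244 and 223 in wild type (log2 fold change -1.54, standard error 0.16, adjusted p = 0.00205). Its other 2 probe sets had log2 fold changes of -0.21 and -0.26 and were not called. The former had far more signal in wild type spermatids (log2 stage ratio -3.37). Gnao1, a G protein alpha subunit gene, had 142 and 150.5 against 297 and 305 (log2 fold change -1.04, standard error 0.16, adjusted p = 0.0114), and a second probe set was called lower with -0.97. Zfyve9, which encodes an anchor of SMAD proteins at endosomes, had 63.7 and 79.6 against 132 and 176 (log2 fold change -1.10, standard error 0.21, adjusted p = 0.0331).

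In metabolism and vesicle acidification, Gpd2, the mitochondrial glycerol-3-phosphate dehydrogenase gene, had 167 and 141 in the knockout and 378 and 317 in wild type (log2 fold change -1.18, standard error 0.13, adjusted p = 0.00303). Another Gpd2 probe set, which spermatids express far more, had a log2 fold change of 0.34 and no call. Atp6v0b, a further subunit of the vesicular proton pump, had 298 and 398 against 737 and 791 (log2 fold change -1.15, standard error 0.15, adjusted p = 0.00477). Of its other 2 probe sets, the brighter had -0.95 and missed the threshold (adjusted p = 0.0558). On the named probe sets Atp6v0b thus fell while Atp6v0a1 rose. The dimmer of the other Atp6v0b probe sets had a log2 fold change of -0.25 and no call. Those of Atp6v0a1 that were not called had -0.27, 0.05 and 0.22. The named Atp6v0b probe set carries the suffix for probes that match other transcripts.

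The last of the 15 were less well known genes. Rcbtb2, which encodes a protein with RCC1 repeats and a BTB domain, had 112 and 113 in the knockout and 207 and 271 in wild type (log2 fold change -1.07, standard error 0.19, adjusted p = 0.021). A brighter Rcbtb2 probe set, with more signal in wild type spermatids (log2 stage ratio -1.20), was also called lower (log2 fold change -0.60, adjusted p = 0.0357). The other Rcbtb2 probe sets were not called. Gm13889 had 245 and 245 against 631 and 443 (log2 fold change -1.11, standard error 0.16, adjusted p = 0.00776). 4933439C10Rik had 123 and 130.2 against 336 and 214 (log2 fold change -1.08, standard error 0.19, adjusted p = 0.0224). Lyz1, a lysozyme gene, had 36.6 and 42.0 against 99.1 and 114 (log2 fold change -1.44, standard error 0.17, adjusted p = 0.00326). Its name is uncertain, because the probe set carries the suffix for probes that match other transcripts and Lyz2 is nearly identical. In these 4 genes the signals of the knockout arrays were closer to each other than those of the wild type arrays. For Lyz1 that holds on the linear scale only.

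**Figure D3:**
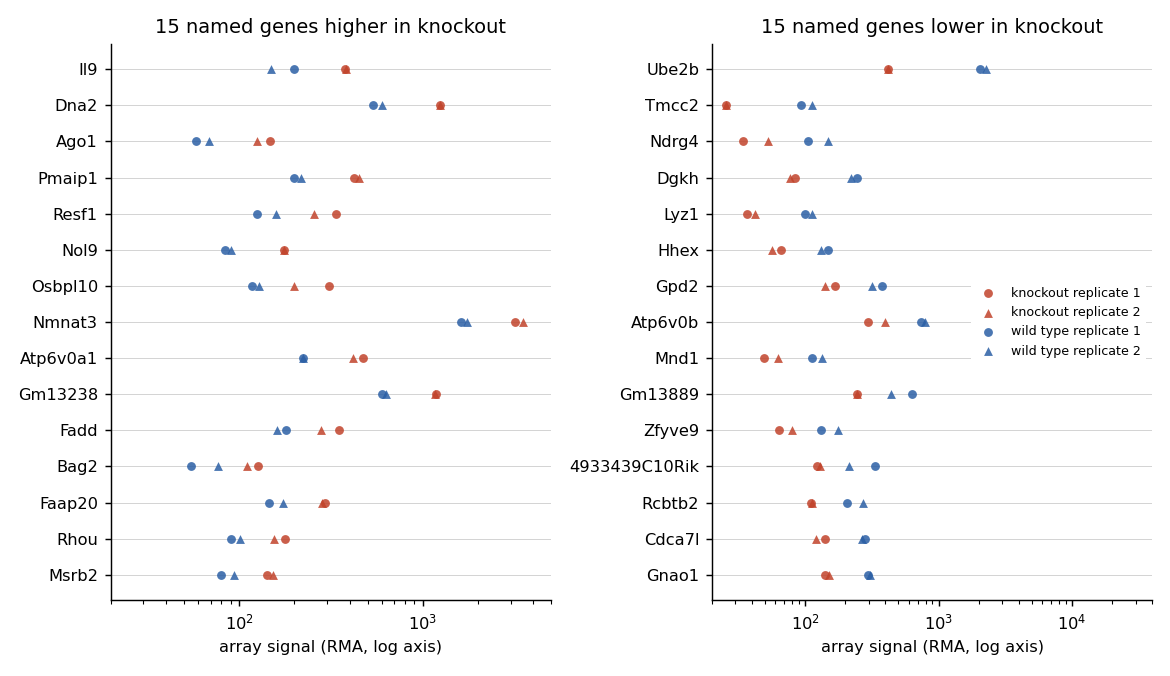
Array signal (x axis, logarithmic) of the 15 spermatocyte-predominant genes that rose most (left) and the 15 that fell most (right). Red symbols are knockout and blue symbols wild type arrays, circles replicate 1 and triangles replicate 2. The 2 red and the 2 blue symbols of a gene do not overlap in any of the 30 rows, as the choice of genes required.

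Of these 30 genes 10 had a single probe set and 20 had others, 41 in all. Of the 41, 15 were called in the same direction and 0 in the opposite direction, and 17 had a mean signal under 100 in both genotypes. The promoter windows of Dna2, Resf1, Nmnat3 and Mnd1 are shown to set sequence beside the values above; Resf1 and Nmnat3 rose on several probe sets, Dna2 differed between the cell types and Mnd1 acts in recombination. Dna2 had a second probe set with a log2 fold change of 1.00 and no call (adjusted p = 0.0803). They run from 250 bases before to 50 bases after the start of the gene in RefSeq (build GRCm38.p6), written 5′ to 3′ along the gene. Capitals mark matches, on either strand, to 4 motifs: the GC box GGGCGG, the CCAAT box, the cyclic AMP response element TGACGTCA and the MYB site AACNGTT. Dna2 lies at chr10:62946779-62947078 on the plus strand, Resf1 at chr6:149309164-149309463 on the plus strand, Nmnat3 at chr9:98296320-98296619 on the plus strand and Mnd1 at chr3:84155737-84156036 on the minus strand.
Dna2: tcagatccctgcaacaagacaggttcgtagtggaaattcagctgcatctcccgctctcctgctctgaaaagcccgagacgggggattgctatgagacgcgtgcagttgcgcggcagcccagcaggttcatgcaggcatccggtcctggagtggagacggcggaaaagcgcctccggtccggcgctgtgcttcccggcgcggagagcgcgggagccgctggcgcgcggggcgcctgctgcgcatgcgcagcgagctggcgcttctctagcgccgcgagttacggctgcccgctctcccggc
Resf1: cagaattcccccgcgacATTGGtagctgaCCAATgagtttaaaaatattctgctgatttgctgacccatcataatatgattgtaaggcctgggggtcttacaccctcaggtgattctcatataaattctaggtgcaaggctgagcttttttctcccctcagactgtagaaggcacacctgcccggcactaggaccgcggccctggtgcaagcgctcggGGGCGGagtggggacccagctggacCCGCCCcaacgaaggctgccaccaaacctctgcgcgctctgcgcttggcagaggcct
Nmnat3: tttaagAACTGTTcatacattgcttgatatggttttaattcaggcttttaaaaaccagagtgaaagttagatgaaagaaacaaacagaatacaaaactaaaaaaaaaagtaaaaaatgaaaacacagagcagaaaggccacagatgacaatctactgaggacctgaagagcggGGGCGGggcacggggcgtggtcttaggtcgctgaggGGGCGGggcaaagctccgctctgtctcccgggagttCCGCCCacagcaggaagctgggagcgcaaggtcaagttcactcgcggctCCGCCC
Mnd1: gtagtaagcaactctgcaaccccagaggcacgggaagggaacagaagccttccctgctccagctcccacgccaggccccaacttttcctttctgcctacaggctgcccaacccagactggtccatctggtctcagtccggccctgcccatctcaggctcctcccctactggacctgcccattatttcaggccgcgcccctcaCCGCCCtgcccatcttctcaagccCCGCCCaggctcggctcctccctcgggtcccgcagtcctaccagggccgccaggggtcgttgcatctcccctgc

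The Dna2 window, which is 67.3% G and C, held none of the 4 motifs. The Resf1 window held 2 CCAAT boxes and 2 GC boxes, the Nmnat3 window 4 GC boxes and 1 MYB site, and the Mnd1 window 2 GC boxes. Windows were found for 31 of the 40 higher genes and 89 of the 108 lower genes, some with several starts. A GC box was in 69.4% of 36 windows of higher genes and 60.5% of 119 windows of lower genes, beside 62.2% of windows of all spermatocyte-predominant genes and 35.7% of all 32851 windows. A MYB site was in 5.56% and 5.88%, beside 3.47% and 4.45%. The CCAAT box was in 33.3% and 37.0%, beside 38.5% and 37.4%. The cyclic AMP response element was in 0 of the 36 and 1.68% of the 119 windows, beside 2.99% and 1.79%. These matches describe the letters of the windows and are not sites of binding.

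The knockout effect was next compared between spermatocytes and spermatids, to see whether a gene differed in 1 stage or in both. In knockout spermatids many more spermatocyte-predominant probe sets were called, 587 higher (3.16%) and 2549 lower (13.7%). The difference between the 2 effects passed the test for 863 spermatocyte-predominant probe sets (4.64%). Of the 62 higher in knockout spermatocytes, 21 (33.9%) were called higher and 2 lower in knockout spermatids, and the effect differed between the cell types for 20 (32.3%). Of the 135 lower, 51 (37.8%) were called lower and 4 higher in spermatids, and the effect differed for 46 (34.1%). The count of 863 depends on the arrays, and it was 57 when knockout spermatocyte replicate 1 was dropped and 118 when replicate 2 was. Dropping a knockout spermatid array gave 107 (replicate 1) or 556 (replicate 2), and dropping a wild type spermatid array 121 or 242.

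Among the named genes that rose, 6 had an effect that differed between the cell types. Dna2 had 157 in both knockout and wild type spermatids, with a log2 fold change of -0.02 beside 1.13 in spermatocytes (adjusted p = 0.0194 for the difference). Ago1, Resf1, Nol9 and Osbpl10 had 0.16, -0.14, 0.11 and -0.14 in spermatids (adjusted p from 0.0231 to 0.0378 for the difference). Rhou differed in the other way, with a larger rise in spermatids (log2 fold change 1.65, adjusted p = 0.0345 for the difference). Its mean was 259.6 in knockout and 82.6 in wild type spermatids, so that knockout spermatids exceeded knockout spermatocytes. Faap20 and Atp6v0a1 were also higher in knockout spermatids, with log2 fold changes of 1.55 and 1.21, as were Il9, Pmaip1, Nmnat3 and Bag2 with 0.80, 0.61, 0.46 and 0.63. Of the 62 higher probe sets 21 had a larger mean in knockout spermatids than in wild type spermatocytes, and 5 a larger mean than in knockout spermatocytes. On the named probe sets of Dna2, Ago1, Resf1, Nol9 and Osbpl10 the spermatid means of both genotypes were below the wild type spermatocyte mean, which does not hold for the second probe set of Osbpl10.

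Among the named genes that fell, 7 had an effect that differed. Tmcc2 had 15.7 in knockout and 13.4 in wild type spermatids, a log2 fold change of 0.23 beside the 4.01-fold fall in spermatocytes (adjusted p = 0.00272 for the difference). Atp6v0b rose in knockout spermatids, from a mean of 268 to 458, a log2 fold change of 0.77 (adjusted p = 0.00432 for the difference). Ndrg4, Hhex, Mnd1, Zfyve9 and Gnao1 had log2 fold changes of 0.12, 0.31, -0.19, 0.20 and 0.31 in spermatids, none of them called. Ube2b, Dgkh, Gpd2, Rcbtb2 and Cdca7l fell in both cell types, with -3.17, -1.25, -1.08, -1.50 and -1.18 in spermatids, and the difference between the cell types did not pass the test for any of these 5 (adjusted p from 0.0997 to 0.809).

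**Figure D4:**
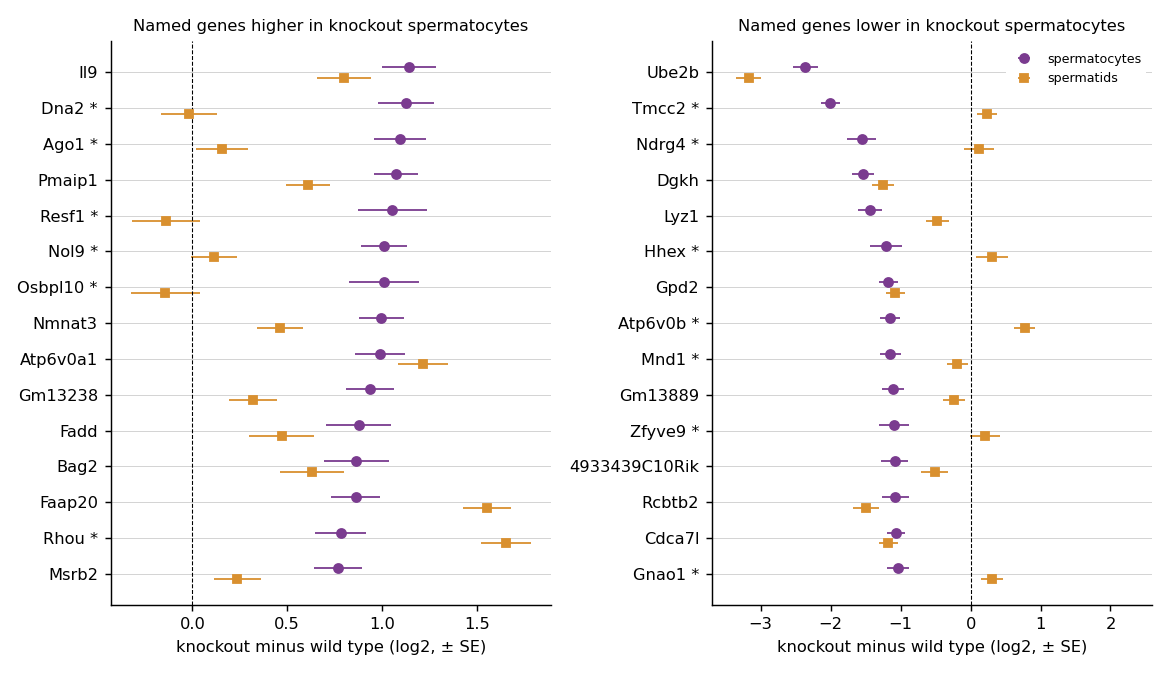
Log2 fold change of knockout against wild type (x axis, error bars are standard errors from the fit) in spermatocytes (circles) and spermatids (squares) for the 30 named genes, with an asterisk after the 13 genes whose effect differed between the cell types at an adjusted p under 0.05. Dna2 and Tmcc2 lie near 0 in spermatids, whereas Rhou and Faap20 lie further right in spermatids than in spermatocytes.

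The other genes of meiosis were read from lists of genes by function, with 1 probe set per gene. Over all 18193 genes 13.9% had an unadjusted p under 0.05, which is the background for the counts at that threshold. Of the 28 called list members that are not among the 30 named genes, 24 lost their call when the 4 spermatocyte arrays were fitted alone, the exceptions being Tsga8, Spata18, Cabs1 and Tssk6. Of 16 markers of late spermatocytes none was called by limma and 1 had an unadjusted p under 0.05, with a median log2 fold change of -0.0018. Hspa2, a chaperone of spermatocytes, had a mean of 15735 (knockout) and 16054 (wild type), and Piwil1, a PIWI gene of meiotic cells, 7872 and 8481, so that both fractions carried these markers at high and similar levels. Of 21 genes of the synaptonemal complex and meiotic cohesin none was called and 4 had an unadjusted p under 0.05. Sycp3, an axial element gene, had 8291 (knockout) and 8831 (wild type), and Sycp1, the transverse filament gene, had 4320 and 4510. Of 28 recombination genes Mnd1 was the 1 that fell and none rose, while Spo11, which makes the breaks, had 4440 and 4001.

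Of 17 ubiquitylation genes around HR6B, Ube2b alone was called. Rad18, a ligase partner, had 751 (knockout) and 743 (wild type), and Rnf20 and Rnf40, the ligases for histone H2B, had log2 fold changes of -0.11 and -0.20. None of 29 genes of the XY body and DNA damage signalling was called, and 3 had an unadjusted p under 0.05. H2ax, the histone variant of the XY body, had 3258 and 3965 (log2 fold change -0.28, adjusted p = 0.34). None of 29 heterochromatin genes was called, with 5 at an unadjusted p under 0.05, and none of 44 genes of the meiotic divisions and cell cycle, with 3. Their median log2 fold changes were 0.05 and 0.04, near that of all genes.

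Of 28 genes of the PIWI pathway and germ granules, 1 fell and none rose. It was Dicer1, which encodes the nuclease that makes small RNAs, with 115 and 121 in the knockout and 181 and 202 in wild type (log2 fold change -0.70, standard error 0.13, adjusted p = 0.0329). Its call was lost when either knockout array or wild type replicate 2 was dropped, and with the spermatid signal subtracted (log2 fold change -0.74 to -0.62). None of 39 genes for germ cell RNA-binding proteins was called, with 3 at an unadjusted p under 0.05. Of 24 genes for histone variants, histone chaperones and bromodomain readers, 1 rose. It was H1f7, the spermatid linker histone, with 1031 and 649.7 against 291 and 173, and it moved with the spermatid markers above.

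Regulators of apoptosis and targets of p53 were 26, of which Pmaip1 rose and none fell, with 5 at an unadjusted p under 0.05. Bbc3, which encodes the related BH3 protein PUMA, had means of 46.2 (knockout) and 52.4 (wild type), and Cdkn1a, a cell cycle inhibitor gene, 54.3 and 56.6. Neither was called. Of 43 genes of the immediate early and stress response, 1 rose and 1 fell, with a median log2 fold change of -0.12. An unadjusted p under 0.05 was found for 12 of the 43, more than the background of 13.9%. The log2 fold change was below 0 for 30 of them and above 0 for 13. A mean signal under 100 in both genotypes was found for 23 of the 43. Cxcl2, a chemokine gene, had 31.2 and 35.4 in the knockout and 85.5 and 138 in wild type (log2 fold change -1.71, adjusted p = 0.00477), and its call was lost without knockout replicate 1 (log2 fold change -1.62). Fosl1 had 61.9 and 62.2 against 36.8 and 40.6 (log2 fold change 0.68, adjusted p = 0.0271), and its call was lost without any 1 of the 4 spermatocyte arrays (0.61 to 0.75). Neither gene is spermatocyte-predominant, since wild type spermatids had means of 120 for Cxcl2 and 105 for Fosl1.

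Cells other than late spermatocytes were followed with their own markers. Spermatogonia and early spermatocytes were represented by 24 markers. Of these 2 fell, none rose, 9 had an unadjusted p under 0.05, and the median log2 fold change was -0.25. The log2 fold change was below 0 for 21 of the 24 and above 0 for 3. Dmrt1, a transcription factor of spermatogonia, had 49.8 and 64.5 in the knockout and 98.4 and 111 in wild type (log2 fold change -0.89, adjusted p = 0.0173), a call that was lost without knockout replicate 1 or wild type replicate 2 (log2 fold change -0.70 and -0.80). Rhox13 had 32.7 and 33.3 against 49.0 and 50.7 (log2 fold change -0.59, adjusted p = 0.0319), a call lost without any 1 of the 4 spermatocyte arrays. The summed signal of the 24 genes was 16748 and 18000 in the knockout and 17403 and 21018 in wild type, while Kit and Gfra1, which mark spermatogonia, had low means of 24.1 and 49.2 in the knockout beside 20.3 and 58.1 in wild type. Of the 24 markers 16 had a mean signal under 100 in both genotypes. The part of spermatogonia and early spermatocytes in the falls above was not tested.

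Of 19 Sertoli cell markers none was called and 1 had an unadjusted p under 0.05, and their summed signal was 5785 and 7549 in the knockout beside 5734 and 7449 in wild type. Both replicate 2 arrays held more of it than both replicate 1 arrays. Clu, Aard and Cst12, the brightest of the list, had means of 2648, 1391 and 1145 in knockout and 2385, 1643 and 1072 in wild type spermatocytes, and 242, 31.9 and 28.2 in wild type spermatids. Of 13 markers of Leydig and peritubular cells 1 rose, Actg2, with 338 and 235 against 106 and 82.5, and wild type spermatids had far more of it than spermatocytes. The other markers of that list included Star, a gene of steroid synthesis, at a mean of 92.7 (knockout) and 101 (wild type). None of 15 markers of blood, macrophages and endothelium was called, and 4 had an unadjusted p under 0.05. Their summed signal was 608 and 657 in the knockout beside 696 and 728 in wild type. Of the 15, 14 had a mean signal under 100 in both genotypes, so the lack of calls says little. Signal was as low for 12 of the 19 Sertoli markers and 9 of the 13 Leydig and peritubular markers.

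**Figure D5:**
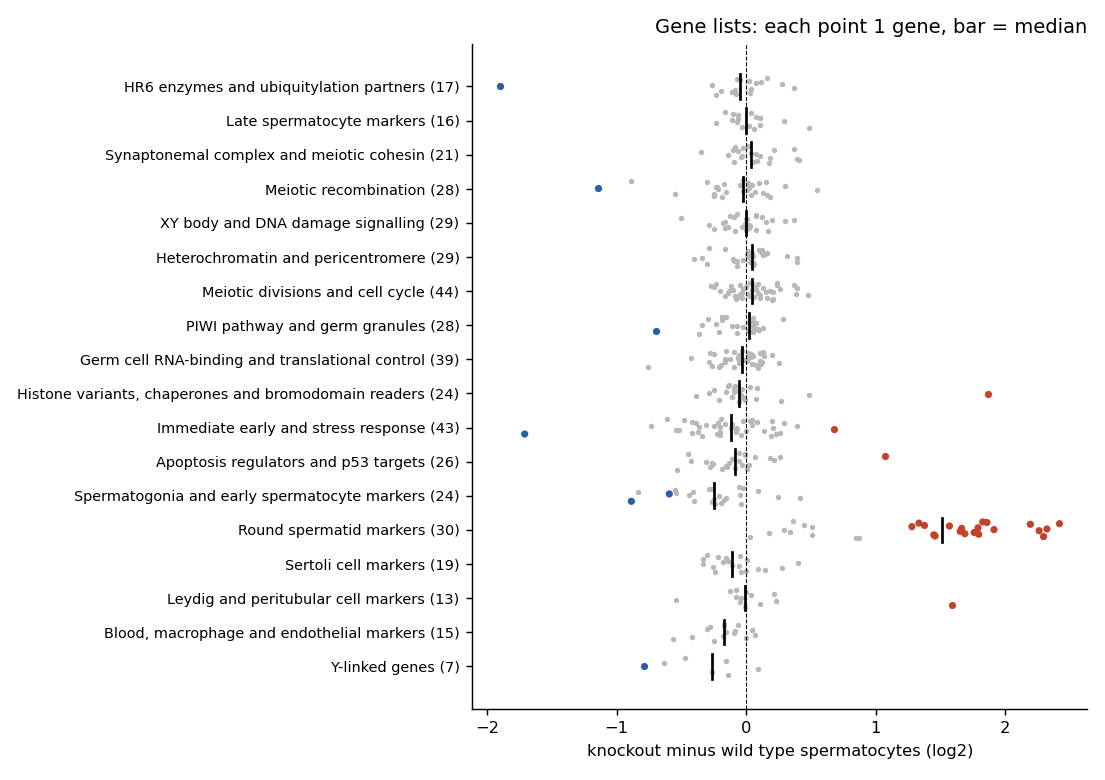
Log2 fold change of knockout against wild type spermatocytes (x axis) for each measured gene of 18 lists, whose size stands in brackets; vertical position within a row has no meaning. Grey points were not called, red points were called higher and blue points lower, and black bars are list medians. The round spermatid markers stand at a median of 1.52, and the other lists have medians between -0.27 and 0.05.

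Spermatocyte-predominant genes of the X chromosome were considered apart, because that chromosome is silenced in these cells. Of 285 such probe sets none was called higher and 2 were called lower, which is 0.702% called. Over all spermatocyte-predominant probe sets 0.333% were higher and 0.726% lower. Only 36 of the 285 reached a mean signal of 100 in a genotype. The 2 called lower were Tsc22d3, with means of 19.4 (knockout) and 34.6 (wild type), and Hccs, with 24.6 and 54.8, both at low signal. The median log2 fold change was -0.13 on the X chromosome and between -0.07 and -0.03 on the autosomes. Chromosome 14 had 11 lower and 0 higher of 513 probe sets, and chromosome 3 had 10 lower and 0 higher of 793, which is 2.14% and 1.26% called beside 1.06% over all spermatocyte-predominant probe sets. Chromosome 5 (2 lower of 991) and chromosome 19 (4 lower of 549) had no higher call either. Of 7 Y-linked genes Uba1y fell, from 110 and 94.8 in wild type to 65.2 and 53.6 in the knockout (log2 fold change -0.79, adjusted p = 0.0246). That call was lost without either knockout array or without wild type replicate 1 (log2 fold change -0.93 to -0.65). Uba1y is not spermatocyte-predominant, since its mean was 939 in wild type spermatids and 102 in wild type spermatocytes. Of the 7 Y-linked genes 6 had a mean signal under 100 in both genotypes.

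The calls rest on few arrays. Permuting 2 arrays against 2 gives no exact two-sided p under 0.333, so the test borrows spread from all genes and all 8 arrays. Without knockout spermatocyte replicate 1 the spermatocyte-predominant calls were 4 higher and 18 lower, and without knockout replicate 2 they were 21 and 38. Wild type replicate 1 left out gave 42 higher and 226 lower. Wild type replicate 2 left out gave 98 and 92, so that the excess of lower over higher calls was not kept without that array. Of the 30 named genes 7 were still called without knockout replicate 1, namely Pmaip1, Nmnat3, Ube2b, Tmcc2, Dgkh, Gpd2 and Cdca7l, and the 23 others then had log2 fold changes of 0.68 to 1.15 upwards and -1.34 to -0.94 downwards, at adjusted p from 0.0526 to 0.358. Without knockout replicate 2, 19 were still called, and with 1 wild type array left out 23 and 25. Fitting the 4 spermatocyte arrays alone left 7 higher and 15 lower probe sets and 12 of the 30 genes. Each of the 30 kept its direction in every setting tried. Leaving out an array or refitting the same values could not reverse a direction, because the genes were chosen with groups that did not overlap. Pmaip1, Nmnat3, Ube2b, Tmcc2, Dgkh and Cdca7l were called in every setting in which they were tested. Bag2, Fadd, Hhex, Zfyve9 and Osbpl10 lost their call most often, in 9 of 14, 8 of 15, 7 of 14, 7 of 14 and 6 of 15 settings.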

How the data were processed

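RNA of late spermatocytes and round spermatids of Hr6b knockout and wild type mice was hybridised to 8 Affymetrix Mouse Genome 430 2.0 arrays, 2 per group. The deposited values are log2 signals that the authors background-corrected, quantile-normalised and summarised per probe set with RMA. The submitters' processing notes name RMA and limma without versions. The values were used as deposited, and signal is 2 to the power of the value. Quantile normalisation gives all arrays nearly the same distribution, so a shift in total RNA per cell cannot be seen.

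A mean for each of the 4 groups was fitted to the 8 arrays with limma 3.58.1 in R 4.3.3 (4 residual and 5.85 prior degrees of freedom), with Benjamini-Hochberg adjustment over 45037 probe sets. The 64 control probe sets were left out. The platform annotation gave 1 gene for 34945 probe sets, several for 932 and none for 9160, and 34741 of the first were matched to RefSeq. Several genes of the lists had no probe set of their own and were not analysed here. Lists and members were chosen with earlier results of these data known. Named genes are the 15 with the largest rise and the 15 with the largest fall among called spermatocyte-predominant genes with 1 gene per probe set, groups apart and a mean signal of 100 or more, with the probe set of largest change per gene, and in addition Ube2b, Ube2a and called list members. Other list members named as examples were chosen after their values were seen. Lists use the probe set with the highest mean over the arrays. Replicate arrays correlated at r = 0.9971 in the knockout and 0.9947 in wild type spermatocytes. Their number limits the precision. The fit was tested on simulated data.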

Additional observations from a re-analysis of the deposited data

Results flagged for a closer look

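The knockout effect differed between spermatocytes and spermatids for the following named genes and markers, each by limma's test of the difference at an adjusted p under 0.05. The values are the log2 fold change in spermatocytes minus that in spermatids, from arrays that share the fit. Among genes higher in knockout spermatocytes it was 1.14 for Dna2, 0.94 for Ago1, 1.19 for Resf1, 0.90 for Nol9, 1.15 for Osbpl10 and -0.87 for Rhou. Among genes lower in knockout spermatocytes it was -2.23 for Tmcc2, -1.68 for Ndrg4, -1.51 for Hhex, -1.92 for Atp6v0b, -0.96 for Mnd1, -1.30 for Zfyve9 and -1.35 for Gnao1.

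For round spermatid markers it was 1.72 for Prm1, 1.99 for Tnp1, 1.90 for Prm2, 1.38 for Tsga8, 1.97 for Tnp2, 1.39 for Odf1, 1.20 for Prm3, 1.27 for Cabs1 and 1.88 for Spam1. For the Y-linked gene Uba1y it was -0.83.

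For markers of other cells it was -2.41 for Aard and -1.71 for Cst12, both Sertoli cell genes, and -0.86 for Adgre1, a macrophage gene. These 3 were not called in spermatocytes (log2 fold changes -0.24, 0.09 and -0.25) and rose by 2.17, 1.80 and 0.61 on the log2 scale in spermatids. Aard had a mean of 1643 in wild type spermatocytes and 31.9 in wild type spermatids.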

How the results depend on the processing

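Only alternatives that changed the array values could have reversed a gene chosen with groups apart. The log2 fold changes of the named genes and of Ube2b kept their direction under every alternative. The excess of lower over higher spermatocyte-predominant calls did not, with 98 higher and 92 lower without wild type replicate 2. With 1 array left out, probe sets called ranged from 119 to 999, spermatocyte-predominant higher calls from 4 to 98, lower calls from 18 to 226, and effects that differed between cell types from 57 to 840, while the log2 fold change of Ube2b in knockout spermatocytes ranged from -2.02 to -1.79. With the 4 spermatocyte arrays fitted alone the counts were 80 in all, 7 higher and 15 lower. With the spermatid signal subtracted, an alternative chosen after seeing the data, they were 294, 38 and 83. With expressed autosomal medians set equal 33 were higher and 134 lower among 12303 probe sets, since the stage division moved too, and with the division held, chosen after seeing the data, 55 were higher and 147 lower. With at least 2-fold more signal in spermatocytes 17 were higher, and 398 effects differed between cell types. That last count was 373 after cyclic loess and 1426 with a prior spread that follows the signal. The cause was not tested. With the replicate number as a block the counts were 686, 50, 136 and 677 and Ube2b kept -1.90 (adjusted p = 0.00141). Deviations of same-numbered arrays correlated at -0.229 to 0.216, which cannot decide whether the numbers pair the arrays. Within each genotype the replicate 2 spermatocyte array held more summed Sertoli signal, and the replicate 1 array more round spermatid signal. A batch shared by number was not tested. Of the values of single genes under alternatives, 940 kept their side of the threshold and 153 lost it. The number of arrays limits the precision.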

Other observations

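Genes near Ube2b on chromosome 11 were looked at after the values were seen. Over the 50 protein-coding genes on each side, 84 spermatocyte-predominant probe sets were tested, of which 2 were higher and 0 lower in knockout spermatocytes (2.38%, beside 1.06% over all spermatocyte-predominant probe sets). Zfp879, a zinc finger gene, had 71.0 and 69.4 in the knockout and 44.1 and 46.6 in wild type (log2 fold change 0.63, adjusted p = 0.0189 from limma), and 0.82 in spermatids. Rapgef6, which encodes an activator of RAP GTPases, had 204 and 182 against 121 and 122 (log2 fold change 0.66, adjusted p = 0.0357 from limma), and -0.21 in spermatids without a call.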
